A study of Mus musculus with 10 samples.

Results

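The genes described here are the chemokines, the small secreted proteins that direct the migration of leukocytes, and the receptors that bind them. They were chosen by symbol, as every gene whose only annotated symbol was Ccl, Cxcl, Cx3cl, Xcl, Ccr, Cxcr, Cx3cr, Xcr or Ackr followed by a number. The rule found 55 of the 22180 genes measured, 34 ligands and 21 receptors, without use of their values. Gene expression was profiled on Affymetrix Mouse Gene ST microarrays, 1 per tumour, in 5 Ezh2-/- and 5 Ezh2+/+ mammary tumours of Tet-ON PyVmT mice, and the question was which transcripts differ once Ezh2 is lost. All mice were females of the FVB strain that carried a reverse tetracycline transactivator under the MMTV promoter, which drives expression in mammary epithelium, and a transgene from which doxycycline in the drinking water induces the polyomavirus middle T oncogene and Cre recombinase. In the Ezh2-/- group Cre also deletes the conditional alleles of Ezh2, the catalytic subunit of the repressive PRC2 complex, in the epithelial cells that form the tumour, whereas fibroblasts, vessels and leukocytes keep the gene. Tumours were taken at an endpoint set by tumour burden, and the animals were young adults when induction began. The paper reports that tumours arose significantly later in mice without Ezh2. The groups may therefore differ in age and in time on doxycycline, which cannot be told apart from genotype. The RNA came from whole frozen tumour, so that fewer cells of a type and less RNA per cell cannot be told apart.

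Chemokines are grouped by the spacing of their first cysteines into CC, CXC, CX3C and XC families, and nearly all signal through receptors coupled to inhibitory G proteins. Inflammatory members are induced by cytokines in epithelium, stroma and macrophages and draw in neutrophils, monocytes and effector T cells, whereas homeostatic members guide the traffic of lymphocytes through lymphoid tissue and mucosa. The atypical receptors, named Ackr, bind chemokines without classical G protein signalling and remove or transport them. In mammary tumours both the cancer cells and the stroma can secrete chemokines, while most of the receptors are carried by leukocytes.

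Several of the inflammatory ligands are textbook targets of NF-kappa B, and the sequence around the start of 4 of them is shown. Of these 4 genes, Cxcl2 and Ccl20 were lower, while Cxcl1 and Cxcl3 did not pass the test. Each window is RefSeq sequence of the build GRCm38.p6, from 250 bases before to 50 bases after the annotated start, 5′ to 3′ on the coding strand. The Cxcl1 window lies at chr5:90890995-90891294, the Cxcl2 window at chr5:90903649-90903948, the Cxcl3 window at chr5:90785851-90786150 and the Ccl20 window at chr1:83116516-83116815, all on the plus strand. Capitals mark every match to the 10-letter kappa B consensus, searched on both strands.
Cxcl1: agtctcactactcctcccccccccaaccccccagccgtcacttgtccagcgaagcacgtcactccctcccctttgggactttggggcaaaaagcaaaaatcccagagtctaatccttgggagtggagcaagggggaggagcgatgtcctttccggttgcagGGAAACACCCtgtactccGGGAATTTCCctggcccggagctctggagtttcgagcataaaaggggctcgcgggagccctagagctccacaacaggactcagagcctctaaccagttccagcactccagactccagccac
Cxcl2: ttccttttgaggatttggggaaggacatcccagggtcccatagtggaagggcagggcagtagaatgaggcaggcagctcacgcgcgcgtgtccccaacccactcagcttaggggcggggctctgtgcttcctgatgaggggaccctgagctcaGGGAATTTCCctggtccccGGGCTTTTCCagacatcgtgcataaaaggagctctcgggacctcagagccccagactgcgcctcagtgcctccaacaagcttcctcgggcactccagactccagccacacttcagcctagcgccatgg
Cxcl3: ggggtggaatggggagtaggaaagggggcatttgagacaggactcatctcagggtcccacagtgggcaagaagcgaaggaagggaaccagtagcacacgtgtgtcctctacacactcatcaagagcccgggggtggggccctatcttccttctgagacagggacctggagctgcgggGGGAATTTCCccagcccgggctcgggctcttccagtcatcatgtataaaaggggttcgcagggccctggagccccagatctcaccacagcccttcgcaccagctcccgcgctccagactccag
Ccl20: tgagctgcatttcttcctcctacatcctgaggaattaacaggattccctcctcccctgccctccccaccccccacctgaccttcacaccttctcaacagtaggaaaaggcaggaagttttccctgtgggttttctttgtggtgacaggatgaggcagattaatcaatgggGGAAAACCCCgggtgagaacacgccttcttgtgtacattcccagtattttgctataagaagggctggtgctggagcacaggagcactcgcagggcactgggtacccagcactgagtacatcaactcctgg
Cxcl1 and Cxcl2 each held 2 matches and Cxcl3 and Ccl20 each held 1. The motif was present in 1.63% of the 32851 promoter windows of the table. Windows were found for 23 of the 34 ligand genes and for 18 of the 21 receptor genes. Of these, 5 ligand genes (the 4 shown and Ccl9) and 1 receptor gene, Ccr3, held the kappa B letters. The Cxcl1 window with 2 matches belonged to a gene that did not pass the test and the Cxcl2 window with 2 matches to a gene that was lower. A TATA box written as TATAAA was found in 13.6% of all windows, in 9 of the 23 ligand genes and in 4 of the 18 receptor genes. The core of the interferon-stimulated response element was found in 3.44% of windows and in 2 ligand genes, Cxcl10 and Cxcl14. The AP-1 letters TGACTCA were found in 5.2% of windows, in 4 ligand genes and in 2 receptor genes, and the STAT letters TTCNNNGAA in 8.3% of windows, in 2 ligand genes and in 1 receptor gene. The median number of CG pairs in a window was 4.5 for ligand windows, 4 for receptor windows and 7 for all windows. A further promoter is shown because Cxcl13 had the largest difference of all 55 genes, in chr5:95956689-95956988 on the plus strand, with its TATA box in capitals.
Cxcl13: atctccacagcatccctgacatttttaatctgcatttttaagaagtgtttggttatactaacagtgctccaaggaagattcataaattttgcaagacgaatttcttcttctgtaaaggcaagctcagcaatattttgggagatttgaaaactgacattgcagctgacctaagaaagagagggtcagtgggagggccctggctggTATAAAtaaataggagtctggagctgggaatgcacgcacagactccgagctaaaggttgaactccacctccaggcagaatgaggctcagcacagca
A match is a run of letters in this window and not evidence of binding.

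Among the ligands, 6 genes were lower in Ezh2-/- tumours, none was higher and 28 did not reach the threshold, an adjusted p below 0.05 by limma. The 6 were Ccl28, Cxcl2, Ccl4, Cxcl17, Ccl20 and Cxcl5. Among the receptors, Cxcr2, Ccr8 and Ccr9 were lower, Ackr1 was higher and 17 did not pass. Over all genes tested, 7.56% were lower, 7.29% were higher and 14.8% passed in either direction. Thus 17.6% of the ligand genes and 14.3% of the receptor genes were lower, beside 7.56% of all genes, and higher calls were 0 of 34 and 1 of 21, beside 7.29%. At an unadjusted p under 0.05, 5 ligands were higher and 7 lower, and 2 receptors were higher and 3 lower. At that threshold 3984 of the 22180 genes were higher and 3449 lower. By the equal-variance test of the methods with adjustment over all genes, Ccl4, Cxcl2, Cxcr2 and Ccr9 passed and the other 6 did not. That test left 2 of 34 ligands and 2 of 21 receptors lower, beside 1153 of the 22180 genes lower and 862 higher. The median log2 difference, Ezh2-/- minus Ezh2+/+, was 0.12 for ligands and -0.04 for receptors, against 0.03 for all genes. The ligand median ranged from 0.03 without Ezh2-/- tumour 5 to 0.21 without Ezh2-/- tumour 3 and was -0.09 without Ezh2-/- tumours 1 and 5, and the receptor median turned to 0.01 after quantile normalization and to 0.13 with centring on all probe sets, so that neither median had a settled sign. The balance of the calls depended on the scaling, as 5 ligands and 4 receptors were higher, and 4 ligands and 1 receptor lower, when each array was centred on the median of all its probe sets. Of all genes that passed, 49.1% were higher, and this share was 60.3% after quantile normalization, 41.8% after cyclic loess, 37.3% when arrays were centred on the median of the genes and 84.9% when they were centred on all probe sets, a step that moved the median difference of all genes from 0.03 to 0.20.

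**Figure D1:**
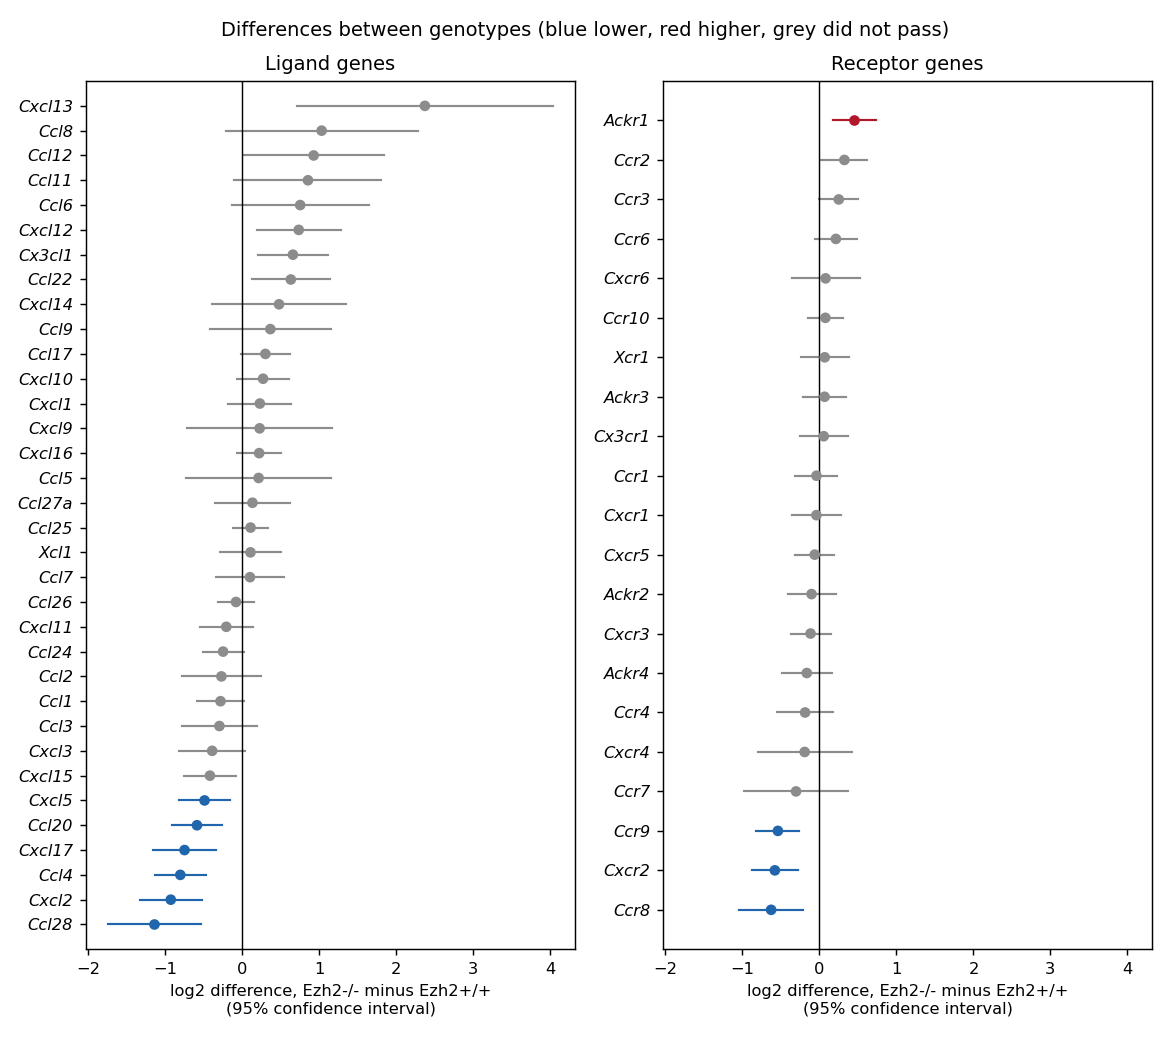
Log2 difference between genotypes (x axis, Ezh2-/- minus Ezh2+/+) for each of the 34 ligand genes (left) and 21 receptor genes (right), with the limma 95% confidence interval, n = 5 tumours in each group. The 6 lower ligands and 3 lower receptors lie below 0 in blue, Ackr1 lies above 0 in red, and the grey genes, Cxcl13 at 2.37 among them, did not pass.

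Calls were not spread evenly over signal strength. In the dimmest 40% of genes, with a mean log2 signal up to 4.56, 12.7% were lower and 1.49% higher, whereas among the other genes 4.10% were lower, 11.2% higher and 15.3% passed in either direction. The same total was 14.2% in the dim range. The shares within each range, rather than those of all genes, are the background for the gene lists read further on. Of the 55 chemokine and receptor genes, 18 were in the dim range, where 4 were lower (Cxcl2, Cxcl5, Ccr8 and Ccr9) and Ackr1 was higher. The other 37 held 5 lower genes (Ccl28, Ccl4, Cxcl17, Ccl20 and Cxcr2), which is 13.5% beside 4.10%, and none higher, beside 11.2%. The tumours of the genotypes did not overlap, with every Ezh2-/- tumour below every Ezh2+/+ tumour, in 6 of the 55 genes (Ccl28, Cxcl2, Ccl4, Cxcl17, Ccl20 and Cxcr2), beside 6.63% of all genes. Of these 6 genes, 5 lay outside the dim range, where 3.65% of all genes separated in this direction, and 1 lay within it, where 11.1% did. No member separated in the other direction, beside 5.05% of all genes.

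**Figure D2:**
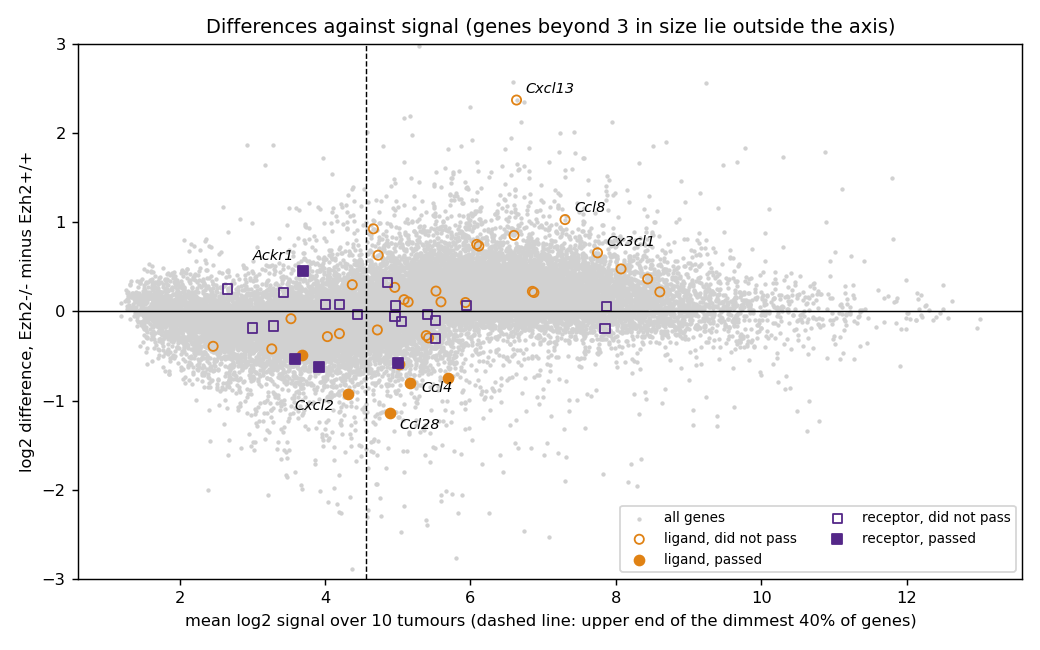
Log2 difference between genotypes (y axis) against the mean log2 signal over 10 tumours (x axis) for all genes (grey), ligands (circles) and receptors (squares), with filled symbols for genes that passed. The dashed line at 4.56 closes the dimmest 40% of genes, in which 4 of the 18 members were lower.

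The CXC ligands that carry the ELR motif and act on neutrophils through Cxcr2 fell in part, together with the receptor itself. Cxcl2, a neutrophil chemoattractant released by macrophages and epithelium, had log2 signals of 3.42, 3.90, 4.06, 3.44 and 4.47 in Ezh2-/- tumours 1 to 5 and of 4.87, 4.94, 4.53, 4.73 and 4.86 in Ezh2+/+ tumours 1 to 5. The Ezh2+/+ tumours lay close together, and only Ezh2-/- tumour 5 came near them. The mean was 3.86 ± 0.44 (SD, n = 5) against 4.79 ± 0.16 (SD, n = 5), a log2 difference of -0.93 (standard error 0.19, 1.90-fold lower, adjusted p = 0.0087 from limma). Cxcl2 passed in each of the 10 fits that left out 1 tumour.

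Cxcl5, an epithelial ligand of the same class, was lower by a smaller margin. Its signal was 3.51, 3.64, 3.33, 3.03 and 3.68 in Ezh2-/- tumours and 4.11, 3.89, 3.75, 3.65 and 4.24 in Ezh2+/+ tumours. The highest Ezh2-/- tumour, the fifth, lay just above the lowest Ezh2+/+ tumour, the fourth. The difference was -0.49 (standard error 0.15, adjusted p = 0.0485 from limma), and it passed only without Ezh2-/- tumour 5 or Ezh2+/+ tumour 4, in 2 of the 10 fits that left out 1 tumour. It did not pass after quantile normalization (adjusted p = 0.198) or cyclic loess (0.175).

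The other ELR ligands did not pass. Cxcl15, known as lungkine in the mouse lung, differed by -0.42 (standard error 0.15, adjusted p = 0.0801) and Cxcl3 by -0.39 (standard error 0.20, adjusted p = 0.183). Both were called lower in 1 of the 10 fits without 1 tumour, Cxcl15 without Ezh2-/- tumour 3 and Cxcl3 without Ezh2-/- tumour 2. Cxcl1, the ligand most often measured beside Cxcl2 in inflamed tissue, differed by 0.23 (standard error 0.19, adjusted p = 0.419), with 5.47, 5.39, 5.68, 5.48 and 6.17 in Ezh2-/- tumours and 5.15, 5.39, 5.15, 6.02 and 5.34 in Ezh2+/+ tumours. Its groups overlapped throughout, whereas those of Cxcl2 did not.

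Cxcr2, the receptor of these ligands and a marker of mature neutrophils, had signals of 4.43, 4.93, 4.68, 4.55 and 4.97 in Ezh2-/- tumours and of 5.11, 5.35, 5.41, 5.52 and 5.06 in Ezh2+/+ tumours. All Ezh2-/- tumours lay below all Ezh2+/+ tumours, with a gap of under 0.1 between the nearest of them. The difference was -0.58 (standard error 0.14, 1.49-fold lower, adjusted p = 0.0170 from limma). It passed in all 10 fits without 1 tumour but not after quantile normalization (adjusted p = 0.0557) or centring on all probe sets (0.0519). Cxcr1, its neighbour on chromosome 1 with no coding gene between them, differed by -0.04 (standard error 0.15, adjusted p = 0.875).

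Neutrophil markers were read beside these genes. Of 8 measured, S100a9 and Retnlg were lower, none was higher and 6 did not pass, with a median difference of -0.10. Both lower genes were among the 6 of the list that lay in the dim range. In that range 12.7% of all genes were lower, 1.49% were higher and the median difference was -0.14. S100a9, a calcium-binding protein of neutrophils, was 3.36 to 4.09 in Ezh2-/- tumours, against 4.68 to 5.59 in Ezh2+/+ tumours. Its difference was -1.28 (standard error 0.19, adjusted p = 0.00165 from limma). Retnlg, a neutrophil-expressed resistin-like protein, differed by -0.62 (standard error 0.14, adjusted p = 0.0170 from limma). S100a8, the partner of S100a9, ranged from 6.51 to 7.87 and from 5.88 to 8.94 and did not pass (adjusted p = 0.564). The summed level of the list was 7.68 to 8.48 on the log2 scale in Ezh2-/- tumours, against 7.67 to 9.36 in Ezh2+/+ tumours, which overlapped. The defining marker Ly6g was 3.46 to 3.97 in Ezh2-/- tumours, against 2.87 to 4.06 in Ezh2+/+ tumours, and the part of neutrophil number in the values of Cxcl2, Cxcl5 and Cxcr2 was not tested.

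Ccl28, Cxcl17 and Ccl20, each known from epithelia, were lower, whereas the epithelial ligands Cx3cl1 (0.66), Cxcl14 (0.48) and Ccl25 (0.11) differed in the other direction and did not pass. Ccl28, which mucosal and lactating mammary epithelium releases to draw plasma cells that carry Ccr10, had signals of 4.33, 4.12, 4.34, 4.40 and 4.46 in Ezh2-/- tumours. In Ezh2+/+ tumours it reached 5.97, 4.71, 6.45, 4.88 and 5.34. The Ezh2-/- tumours were thus alike and low, while the Ezh2+/+ tumours were spread widely above them, with tumours 3 and 1 highest. The mean was 4.33 ± 0.13 (SD, n = 5) against 5.47 ± 0.73 (SD, n = 5), a log2 difference of -1.14 (standard error 0.28, 2.20-fold lower, adjusted p = 0.0196 from limma). This was the largest fall among the 55 genes. It passed in all 10 fits without 1 tumour, but not by the equal-variance test of the methods with adjustment over all genes (adjusted p = 0.0687), which does not share the spread across genes.

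Cxcl17, a ligand of mucosal epithelium that attracts myeloid cells, had signals of 5.71, 5.09, 5.22, 5.30 and 5.23 in Ezh2-/- tumours and of 5.73, 5.83, 6.58, 5.75 and 6.42 in Ezh2+/+ tumours. Tumours 3 and 5 of the Ezh2+/+ group stood above the rest, and Ezh2-/- tumour 1 nearly met the lowest Ezh2+/+ tumour. The difference was -0.75 (standard error 0.19, 1.68-fold lower, adjusted p = 0.0214 from limma). It passed in 7 of the 10 fits without 1 tumour, but not without Ezh2-/- tumour 2 or 4 or Ezh2+/+ tumour 5.

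Ccl20, induced by NF-kappa B in epithelium and the ligand of Ccr6, had signals of 4.99, 4.52, 4.87, 4.55 and 4.67 in Ezh2-/- tumours and of 4.99, 5.70, 5.04, 5.42 and 5.39 in Ezh2+/+ tumours. The groups touched at 4.99, where Ezh2-/- tumour 1 lay just below Ezh2+/+ tumour 1. The difference was -0.59 (standard error 0.15, adjusted p = 0.0240 from limma), and it passed in 6 of the 10 fits without 1 tumour, those without Ezh2-/- tumours 2 and 4 and Ezh2+/+ tumours 4 and 5 being the exceptions. It did not pass after quantile normalization (adjusted p = 0.0579) or centring on all probe sets (0.0525).

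Ccr10 and Ccr6, receptors of Ccl28 and Ccl20, did not pass. Ccr10, the receptor of Ccl28 on plasma cells and of Ccl27 on skin-homing T cells, differed by 0.08 (standard error 0.11, adjusted p = 0.639), with a 95% interval of -0.15 to 0.31. Ccr6, on B cells and Th17 cells, differed by 0.21 (standard error 0.13, adjusted p = 0.258) and passed only when arrays were centred on all probe sets (0.0351). None of 10 luminal and tumour epithelial markers passed, and their summed level was 12.38 to 12.77 in Ezh2-/- tumours, against 12.54 to 12.80 in Ezh2+/+ tumours.

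Of the inflammatory CC ligands, Ccl4 fell while most of its neighbours did not. Ccl4, known as MIP-1 beta and secreted by activated T cells, NK cells and macrophages, had signals of 4.81, 4.98, 4.77, 4.69 and 4.60 in Ezh2-/- tumours and of 5.37, 5.31, 5.71, 5.39 and 6.09 in Ezh2+/+ tumours. The groups stood clear of each other, with Ezh2+/+ tumour 5 highest. The difference was -0.81 (standard error 0.15, 1.75-fold lower, adjusted p = 0.00633 from limma), and Ccl4 passed under each adjusted alternative and in all 10 fits without 1 tumour.

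Ccl3, which shares its sources and part of its receptors with Ccl4, ranged from 5.04 to 5.79 in Ezh2-/- tumours, against 4.84 to 6.12 in Ezh2+/+ tumours and differed by -0.30 (standard error 0.22, adjusted p = 0.367). Ccl5, a T cell and platelet chemokine, ranged from 5.95 to 8.67 and from 6.45 to 7.53, with Ezh2-/- tumour 5 highest, and differed by 0.21 (standard error 0.43, adjusted p = 0.763). Their shared receptor Ccr1 differed by -0.04 (standard error 0.13, adjusted p = 0.854). Thus only Ccl4 of this receptor group passed. Beside Ccl4, 2 of 8 NK cell markers were lower, the cytotoxic granule genes Prf1 (-0.51, adjusted p = 0.0150 from limma) and Gzma (-0.39, adjusted p = 0.0486), and none was higher, whereas 4 of 10 T cell markers were higher and none was lower. Of the 8 NK cell markers, 5 lay in the dim range, Gzma among them. The summed NK cell level was 7.48 to 8.08 in Ezh2-/- tumours, against 7.60 to 7.84 in Ezh2+/+ tumours. Its part in the Ccl4 result was not tested.

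**Figure D3:**
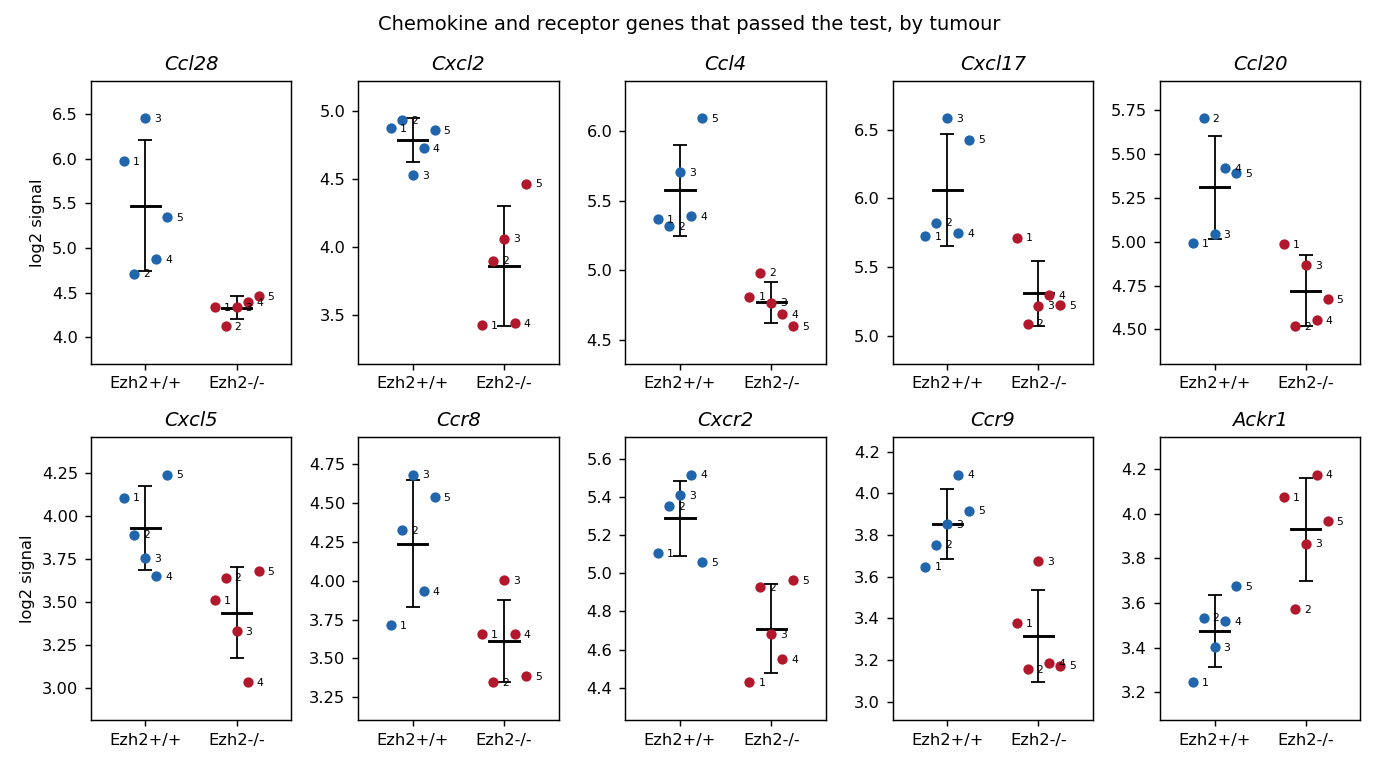
Log2 signal (y axis, a separate scale for each gene) in each numbered tumour for the 10 genes that passed, with the group mean and SD in black, n = 5. All Ezh2-/- tumours lie below all Ezh2+/+ tumours for Ccl28, Cxcl2, Ccl4, Cxcl17, Ccl20 and Cxcr2, whereas Ackr1 is the 1 gene with the higher mean in Ezh2-/- tumours.

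Ccr9 and Ccr8, both receptors of lymphocytes, were lower at dim signals. Ccr9, which brings T cells and plasma cells to the gut towards Ccl25, had signals of 3.38, 3.16, 3.67, 3.18 and 3.17 in Ezh2-/- tumours and of 3.65, 3.75, 3.85, 4.09 and 3.92 in Ezh2+/+ tumours. Ezh2-/- tumour 3 overlapped with Ezh2+/+ tumour 1 and the others were apart. The difference was -0.54 (standard error 0.13, 1.45-fold lower, adjusted p = 0.0177 from limma), present in all 10 fits without 1 tumour but not after quantile normalization (adjusted p = 0.0832) or cyclic loess (0.0760). Its ligand Ccl25 did not pass (difference 0.11, standard error 0.10, adjusted p = 0.487).

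Ccr8, carried by regulatory T cells and Th2 cells, had signals of 3.65, 3.35, 4.00, 3.66 and 3.39 in Ezh2-/- tumours and of 3.71, 4.32, 4.68, 3.93 and 4.53 in Ezh2+/+ tumours. The groups overlapped at Ezh2-/- tumour 3 and Ezh2+/+ tumours 1 and 4. The difference was -0.63 (standard error 0.19, 1.54-fold lower, adjusted p = 0.0453 from limma), and it passed in 3 of the 10 fits without 1 tumour, those without Ezh2-/- tumour 3 and Ezh2+/+ tumours 1 and 4. It did not pass after quantile normalization (adjusted p = 0.136) or cyclic loess (0.137). Its ligand Ccl1 differed by -0.28 (standard error 0.14, adjusted p = 0.183). Of 10 T cell markers, Cd3e, Cd3g, Cd4 and Thy1 were higher, none was lower and 6 did not pass, and among those higher was Cd4, the coreceptor of helper T cells, which was 5.78 to 7.16 against 4.69 to 5.34 (adjusted p = 0.00415 from limma). The summed T cell level was 8.72 to 10.08 in Ezh2-/- tumours, all above the 8.23 to 8.57 of Ezh2+/+ tumours, and the part of lymphocyte number in the values of Ccr8 and Ccr9 was not tested.

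Ackr1, the atypical receptor that venular endothelium uses to carry chemokines across the vessel wall, was the only member that was higher. Its signal was 4.07, 3.57, 3.87, 4.17 and 3.97 in Ezh2-/- tumours and 3.24, 3.54, 3.40, 3.52 and 3.68 in Ezh2+/+ tumours. Of the Ezh2-/- tumours, 4 lay above all Ezh2+/+ tumours and tumour 2 lay among them. The difference was 0.46 (standard error 0.13, 1.37-fold higher, adjusted p = 0.0356 from limma), and it passed in 4 of the 10 fits without 1 tumour, those without Ezh2-/- tumours 2 and 5 and Ezh2+/+ tumours 2 and 5. Beside it, 5 of 9 markers of blood endothelium (Erg, Tek, Emcn, Kdr and Tie1) were higher and none was lower, with a summed level of 9.44 to 10.22 in Ezh2-/- tumours, against 8.95 to 9.52 in Ezh2+/+ tumours. Their part in the Ackr1 result was not tested. The other atypical receptors did not pass, namely the scavengers Ackr2 (-0.10) and Ackr4 (-0.16) and the Cxcl12-binding Ackr3 (0.07), the sign of which turned after cyclic loess (-0.11).

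Another set of ligands had higher means in Ezh2-/- tumours, with wide spread, and did not pass. Cxcl13, which guides B cells and follicular helper T cells through Cxcr5, had signals of 9.11, 6.41, 5.17, 9.07 and 9.33 in Ezh2-/- tumours and of 5.53, 4.58, 5.01, 5.03 and 7.08 in Ezh2+/+ tumours. Tumours 1, 4 and 5 of the Ezh2-/- group stood far above the rest, tumour 3 lay within the Ezh2+/+ range, and Ezh2+/+ tumour 5 was the highest of its group. The mean was 7.82 ± 1.90 (SD, n = 5) against 5.45 ± 0.97 (SD, n = 5), a log2 difference of 2.37 (standard error 0.77, 95% interval 0.71 to 4.04, adjusted p = 0.0555 from limma). It passed when Ezh2-/- tumour 3 or Ezh2+/+ tumour 5 was left out, and when arrays were centred on all probe sets (adjusted p = 0.0294).

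Ccl8, a monocyte and T cell attractant made by macrophages, had signals of 8.60, 6.57, 6.48, 8.23 and 9.21 in Ezh2-/- tumours and of 6.92, 7.04, 5.75, 5.94 and 8.27 in Ezh2+/+ tumours. The same Ezh2-/- tumours 1, 4 and 5 were high, and Ezh2+/+ tumour 5 reached them. The difference was 1.03 (standard error 0.57, adjusted p = 0.226). Ccl11, or eotaxin, a fibroblast product that draws eosinophils through Ccr3, had signals of 7.92, 5.91, 6.10, 7.62 and 7.59 and of 6.62, 6.80, 5.78, 5.02 and 6.65, a difference of 0.85 (standard error 0.44, adjusted p = 0.193). It too was highest in Ezh2-/- tumours 1, 4 and 5, while tumours 2 and 3 lay below most of the Ezh2+/+ tumours.

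Ccl6, a ligand of macrophages in the mouse, was 7.00, 5.76, 5.34, 6.47 and 7.73 in Ezh2-/- tumours and 5.77, 5.60, 4.96, 5.58 and 6.64 in Ezh2+/+ tumours, with a difference of 0.75 (standard error 0.41, adjusted p = 0.217). Cxcl12, the stromal ligand of Cxcr4 and Ackr3, was 6.87, 5.87, 5.93, 6.67 and 7.07 and 5.73, 6.17, 5.42, 5.34 and 6.09, with a difference of 0.73 (standard error 0.25, adjusted p = 0.0674). Both followed the order seen for Ccl8 in the Ezh2-/- group, in which tumours 2 and 3 were lowest. Ccl12, a monocyte ligand known in the mouse, differed by 0.93 (standard error 0.42, adjusted p = 0.143), with 5.25, 5.56, 3.78, 4.96 and 6.10 against 4.50, 4.58, 2.84, 4.50 and 4.59. Here 4 of the 5 Ezh2-/- tumours lay above all Ezh2+/+ tumours, and tumour 3 was the lowest of each group. Ccl12 passed without Ezh2-/- tumour 3, and Cxcl12 without Ezh2-/- tumour 2 or 3 and with centring on all probe sets (adjusted p = 0.0210).

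Cx3cl1, the membrane-bound ligand of Cx3cr1 on epithelium and endothelium, did not share that order. Its signal was 7.95, 8.20, 8.29, 8.25 and 7.70 in Ezh2-/- tumours and 7.70, 7.43, 7.44, 7.88 and 6.65 in Ezh2+/+ tumours. Tumours 2, 3 and 4 were highest, and 4 of the 5 Ezh2-/- tumours lay above every Ezh2+/+ tumour. The difference was 0.66 (standard error 0.21, 1.58-fold, adjusted p = 0.0512 from limma), and the gene passed without Ezh2-/- tumour 5 or Ezh2+/+ tumour 1 or 4, with array weights (adjusted p = 0.0230) and with centring on all probe sets (0.0219). Ccl22, a ligand of Ccr4 made by dendritic cells and macrophages, had 4.95, 4.67, 4.70, 4.94 and 5.97 in Ezh2-/- tumours and 4.26, 4.70, 3.96, 4.68 and 4.47 in Ezh2+/+ tumours, a difference of 0.63 (standard error 0.24, adjusted p = 0.0853). Tumour 5 of the Ezh2-/- group stood apart from the others, and the gene passed after quantile normalization (adjusted p = 0.0489) and with centring on all probe sets (0.0253). Ccl17, the other ligand of Ccr4, differed by 0.30 (standard error 0.15, adjusted p = 0.176) and passed only with centring on all probe sets (0.0303).

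**Figure D4:**
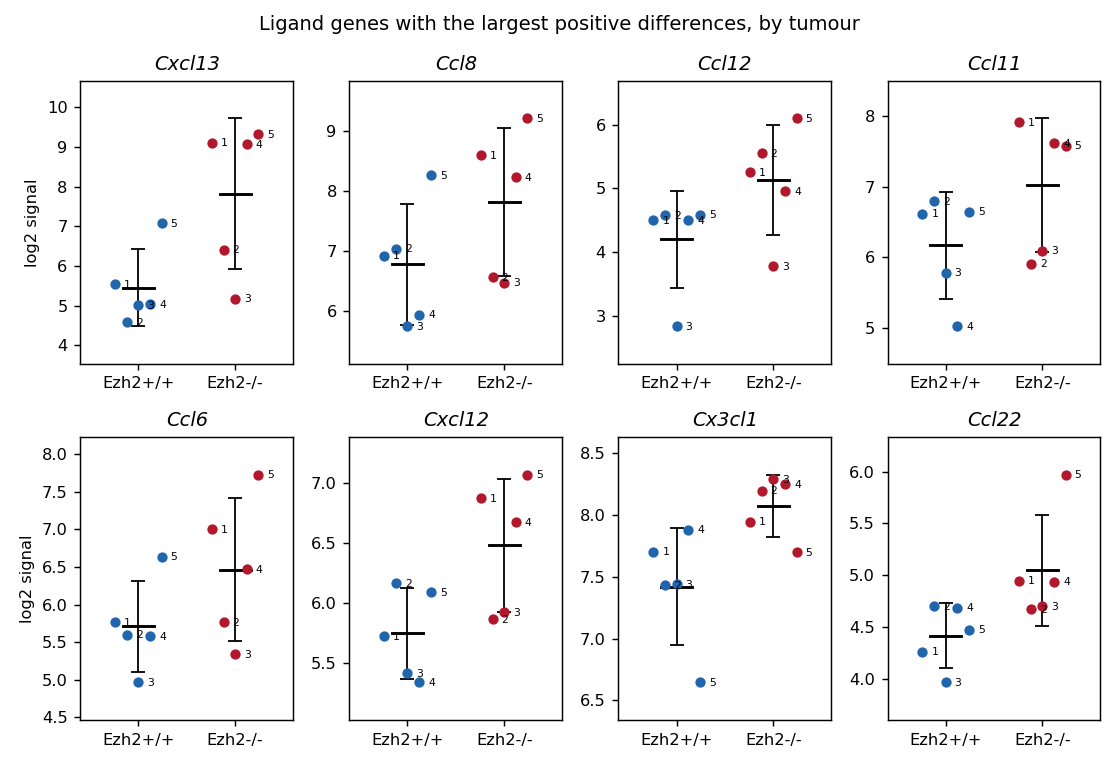
Log2 signal (y axis, a separate scale for each gene) in each numbered tumour for 8 ligands with large positive differences that did not pass, with the group mean and SD in black, n = 5. Ezh2-/- tumours 1, 4 and 5 are the highest of their group for Cxcl13, Ccl8, Ccl11, Ccl6 and Cxcl12, but not for Cx3cl1 or Ccl12.

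Markers of other tissues differed between the tumours that were high and low in these ligands. Adipocyte markers, of which none of 8 passed, had a summed level of 11.24, 8.36, 8.60, 10.24 and 9.77 in Ezh2-/- tumours 1 to 5 and of 8.03 to 9.60 in Ezh2+/+ tumours, with tumours 1, 4 and 5 again highest. Fibroblast markers, of which 6 of 8 were higher and none lower, summed to 11.78, 11.07, 10.97, 12.20 and 11.42, all above the 8.87 to 10.54 of Ezh2+/+ tumours. Of 8 markers of lymphatic endothelium and lymph node, Madcam1 was lower (difference -0.44, adjusted p = 0.0148 from limma), none was higher and 7 did not pass. Their summed level was 9.75, 8.65, 8.50, 10.36 and 10.51 in Ezh2-/- tumours. It was 8.40 to 8.84 in 4 of the Ezh2+/+ tumours and 11.83 in Ezh2+/+ tumour 3. The high sums largely followed 1 gene, Glycam1, and therefore say little about lymph node or lymphatic vessels. The signal of Glycam1 was 8.82, 6.39, 6.76, 9.91 and 9.68 in Ezh2-/- tumours and 11.73 in Ezh2+/+ tumour 3.

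Macrophage markers summed to 12.51, 12.24, 11.81, 12.37 and 12.62 in Ezh2-/- tumours, against 11.27 to 12.04 in Ezh2+/+ tumours, and 4 of 14 were higher (Adgre1, Csf1r, Cd14 and C1qc) and none lower. Skeletal muscle markers summed to 12.38 and 11.18 in Ezh2-/- tumours 1 and 5 and to no more than 8.69 in the other 8 tumours. The part of fat, stroma, lymph node and macrophages in the ligand values was not tested. When Ezh2-/- tumours 1 and 5 were left out together, the same 6 ligands were lower with Ccl24 in addition, Cx3cl1 was higher (difference 0.83, adjusted p = 0.0355 from limma), and Ackr1 did not pass (adjusted p = 0.0973). The receptors that were lower were then Cxcr2, Ccr9, Ccr7, Ccr4 and Ackr4.

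Across all ligands, Ezh2-/- tumour 5 held the highest value of the 10 tumours for 13 of the 34 genes and for 8 of the 21 receptors. Ezh2+/+ tumour 5 was highest for 7 ligands. At the low end, Ezh2+/+ tumour 3 was lowest for 10 ligands and Ezh2+/+ tumour 4 for 6. The remaining ligands that did not pass lay within the range already given, since the 28 differed by -0.42 to 2.37, 11 of them by less than 0.25 in size, with adjusted p between 0.0512 and 0.763. The interferon-induced ligands of Cxcr3, namely Cxcl9, Cxcl10 and Cxcl11, differed by 0.22, 0.27 and -0.21, and none passed (adjusted p = 0.748, 0.242 and 0.375). Their receptor Cxcr3, on effector T cells and NK cells, differed by -0.12 (adjusted p = 0.526). Other ligands with strong signal were also among those that did not pass, namely Ccl9, a macrophage product in the mouse (0.36, adjusted p = 0.504), Cxcl16, the membrane-bound ligand of Cxcr6 (0.22, adjusted p = 0.260), and Cxcl14, an epithelial and stromal ligand (0.48, adjusted p = 0.422). The value of Ccl9 turned to -0.15 without Ezh2-/- tumours 1 and 5. Ccl27a lies in a family of near-identical copies, and its value of 0.13 is therefore uncertain.

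Receptors that did not pass differed by -0.30 to 0.32, 14 of 17 by less than 0.25 in size, with adjusted p between 0.121 and 0.875. Ccr2, the receptor of inflammatory monocytes, had signals of 5.26, 4.92, 4.75, 4.91 and 5.25 in Ezh2-/- tumours and of 4.46, 4.95, 4.58, 4.60 and 4.88 in Ezh2+/+ tumours. Ezh2-/- tumours 1 and 5 lay above all others and the rest overlapped, a difference of 0.32 (standard error 0.14, adjusted p = 0.121 from limma). It passed after quantile normalization (adjusted p = 0.0420) and with centring on all probe sets (0.0187). Ccr3, the eotaxin receptor of eosinophils, differed by 0.25 (standard error 0.12, adjusted p = 0.157) and passed with that centring alone (0.0194).

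Ccr7, which takes dendritic cells and naive T cells to lymph nodes, was 5.57, 4.47, 5.16, 5.01 and 6.64 in Ezh2-/- tumours and 5.58, 5.49, 5.72, 5.60 and 5.98 in Ezh2+/+ tumours. Tumour 5 was the highest of all 10 and tumour 2 the lowest, so that the spread was wide in Ezh2-/- tumours alone. The difference was -0.30 (standard error 0.31, adjusted p = 0.515). It passed, as a fall, when Ezh2-/- tumour 5 was left out. Cx3cr1, a receptor of macrophages, differed by 0.06 (95% interval -0.26 to 0.37), while its ligand Cx3cl1 differed by 0.66, and its sign turned after quantile normalization (-0.05) and cyclic loess (-0.11). Cxcr4, the receptor of Cxcl12 on leukocytes and cancer cells, differed by -0.19 (95% interval -0.80 to 0.42), with Ezh2+/+ tumour 1 highest at 8.98, and by 0.07 without that tumour. Cxcr5, the receptor of Cxcl13, differed by -0.06 (95% interval -0.32 to 0.19) and did not pass (adjusted p = 0.748). B and plasma cell markers, of which none of 10 passed, summed to 10.96 to 11.67 in Ezh2-/- tumours, against 10.70 to 11.54 in Ezh2+/+ tumours. Most of each sum came from 1 gene, Xbp1, with signals of 10.77 to 11.23 when Ezh2 was lost, against 10.47 to 11.01. The sums therefore say little about B cells. Ms4a1, Cd79a and Cd79b were highest in Ezh2-/- tumour 5 (5.98, 6.81 and 6.36), whereas Pax5, Jchain and Mzb1 were highest in Ezh2+/+ tumour 5. The part of B cell number in the values of Cxcl13 and Cxcr5 was not tested.

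Many of the ligand genes lie side by side, and neighbours often differed in sign. On chromosome 5, in the gene order of RefSeq, Cxcl3, Cxcl15, Cxcl1 and Cxcl2 follow each other with no coding gene between them, and 2 coding genes separate them from Cxcl5. Along this run the differences were -0.49 for Cxcl5, -0.39 for Cxcl3, -0.42 for Cxcl15, 0.23 for Cxcl1 and -0.93 for Cxcl2, so that the ends were lower and Cxcl1 next to Cxcl2 was not. On chromosome 11, Ccl2, Ccl7, Ccl11, Ccl12, Ccl8 and Ccl1 are adjacent. The outer genes of that run differed by -0.27 (Ccl2) and -0.28 (Ccl1) and the inner Ccl11, Ccl12 and Ccl8 by 0.85, 0.93 and 1.03, and none passed. Ccl2, the main monocyte ligand of Ccr2, thus did not share the positive values of its neighbours (adjusted p = 0.438). Further along the same chromosome, Ccl5, Ccl9, Ccl6, Ccl3 and Ccl4 are adjacent, with differences of 0.21, 0.36, 0.75, -0.30 and -0.81. Ccl4 was the only gene of that run that passed, and Ccl3 beside it overlapped between genotypes. Ccl22, Cx3cl1 and Ccl17 are adjacent on chromosome 8 and differed by 0.63, 0.66 and 0.30. The receptor genes Cx3cr1 and Ccr8 are neighbours on chromosome 9, and there only Ccr8 was lower.

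**Figure D5:**
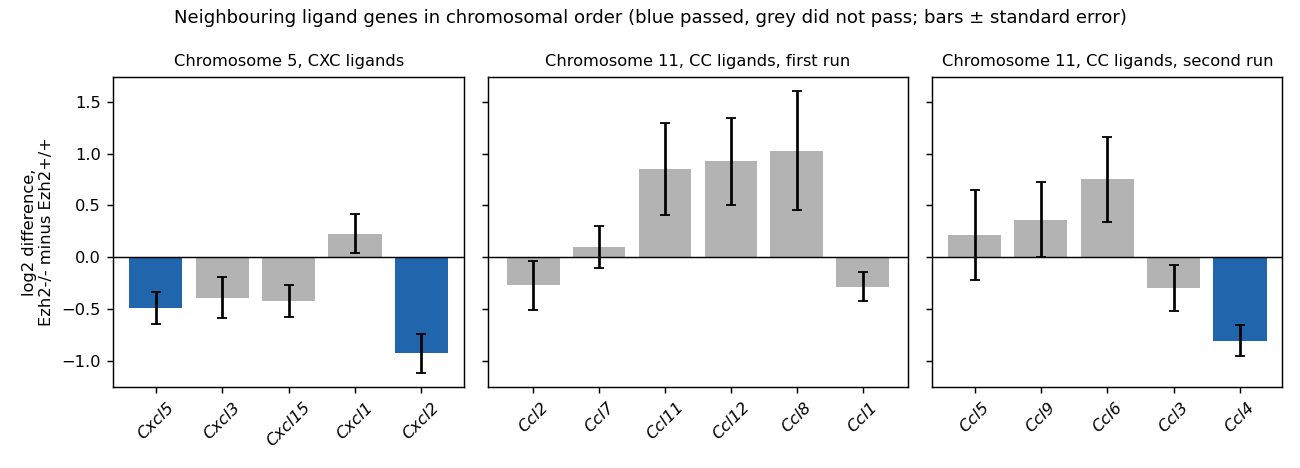
Log2 difference between genotypes (y axis, bars with the standard error, n = 5 tumours in each group) for ligand genes in chromosomal order on chromosomes 5 and 11 (x axis, not to scale). Blue bars passed and grey bars did not, and Cxcl2 and Ccl4 stand below neighbours with differences of 0.23 and -0.30.

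Chemokine genes that the symbol rule leaves out were read in the same fit. Of 6 measured, Pf4 and Cmklr1 were higher, Ccr1l1, a relative of Ccr1, was lower, and Ccrl2, Mif and Ppbp did not pass. Ccr1l1 and Ppbp lay in the dim range. Pf4, the platelet chemokine also known as Cxcl4 that macrophages express too, was 6.41, 5.00, 4.74, 6.18 and 6.17 in Ezh2-/- tumours, against 4.19 to 5.16 in Ezh2+/+ tumours, a difference of 1.01 (standard error 0.31, adjusted p = 0.0486 from limma). Ezh2-/- tumours 1, 4 and 5 were high here as well. Cmklr1, the chemerin receptor of macrophages and plasmacytoid dendritic cells, was 4.87 to 5.58 against 4.33 to 4.75, with no overlap, a difference of 0.76 (standard error 0.15, adjusted p = 0.00892).

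The signalling machinery below the receptors was higher in part. Of 27 measured genes, 8 were higher and none was lower, with a median difference of 0.40 against 0.03 for all genes. Only 2 of the 27 lay in the dim range. Outside that range 11.2% of all genes were higher, and their median difference was 0.15. The 8 were Rac2, Vav1, Tiam1, Dock2, Was, Arrb2, Grk3 and Prex1. Rac2, the haematopoietic Rac GTPase that drives leukocyte migration, rose by 0.79 (standard error 0.20, adjusted p = 0.0221 from limma), and Vav1 and Dock2, exchange factors for Rac in leukocytes, rose by 0.72 (adjusted p = 0.0173) and 0.56 (adjusted p = 0.0285). Arrb2, the arrestin that takes active receptors out of the membrane, rose by 0.49 (adjusted p = 0.0221). Several of these genes are leukocyte genes, and macrophage and T cell markers were higher in the same tumours, a link that was not tested. The G protein genes Gnai2, Gnai3 and Gnb1 did not pass.

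Among 12 genes that cleave or display chemokines, Mmp2, Dpp4, Hspg2 and Ext1 were higher and none was lower. Mmp2, a stromal gelatinase that truncates chemokines, rose by 1.73 (standard error 0.29, adjusted p = 0.00336 from limma), and Dpp4, which trims the ends of Cxcl12 and of the Cxcr3 ligands, rose by 0.97 (standard error 0.28, adjusted p = 0.0396). Hspg2, or perlecan, and Ext1, which builds heparan sulphate, rose by 0.77 and 0.64 (adjusted p = 0.0268 and 0.0348). Mmp2 is also a product of fibroblasts, whose markers were higher.

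Of 19 cytokines and regulators that induce chemokines, Rela and Nfkb2, subunits of NF-kappa B, were higher and the Th2 cytokine Il13 was lower. The other 16 did not pass. Over all genes 7.29% were higher, 7.56% lower and 14.8% passed in either direction, so the number of calls in this list lay near the background. In this list 8 genes lay in the dim range, Il13 among them. Rela rose by 0.53 (standard error 0.15, adjusted p = 0.0353 from limma) and Nfkb2 by 0.61 (standard error 0.18, adjusted p = 0.0412), while Il13 fell by 0.53 (standard error 0.14, adjusted p = 0.0294). Of the 5 ligand genes with kappa B letters, Cxcl2 and Ccl20 were lower in the same tumours. The others, Cxcl1 (0.23), Cxcl3 (-0.39) and Ccl9 (0.36), did not pass. A link between these genes and Rela or Nfkb2 was not tested. The cytokines Tnf, Il1a, Il1b, Il6, Ifng and Il17a did not pass.

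The labels were checked on Ezh2 itself, which had signals of 6.36 to 6.50 in Ezh2-/- tumours, all below the 6.98 to 7.69 of Ezh2+/+ tumours (difference -1.03, standard error 0.14, adjusted p = 0.000770 from limma). Whether its probes lie in the deleted part is not known here. Arrays correlated at 0.965 to 0.982 within a genotype and at 0.930 to 0.962 between genotypes, and no pair was identical. Array values have no read depth, and the number of arrays limits the precision. The labels call the tumours biological replicates without naming the mouse, so the p-values measure the spread between these tumours.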

How the data were processed

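Endpoint tumours were profiled on Affymetrix Mouse Gene ST microarrays, 1 for each of 10 tumours. The authors normalized the scans to 1 value per probe set with Expression Console and compared genotypes by ANOVA with Transcriptome Analysis Console. The deposited values run from 0.595 to 13.2 and were read as log2 signal, because the algorithm and the log base are not given in the sources used here. Were the base another, differences and folds would change and ranks would not.

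Of the probe sets, 23521 had 1 gene symbol in the array's annotation and stood for 22180 genes. A gene was represented by its probe set of highest average signal, and probe sets with several symbols were not analysed here, so that ligands found only on such probe sets are missing. Genotypes were compared with limma (version 3.58.1, R 4.3.3, default prior, two-sided), with Benjamini-Hochberg adjustment across the 22180 genes, and a gene was called at an adjusted p under 0.05. Intervals are limma's 95% confidence intervals, and the summed level of a marker list is the log2 of the summed linear signals. The fit was tested on simulated data.

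The members, gene lists and alternatives were chosen with earlier results of these data known. Named were members that passed or did not overlap, the 5 ligands and 3 receptors with the largest differences among those that did not pass, the 5 ligands and 3 receptors with the strongest signal, and members whose call changed with scaling. Of each gene list, up to 4 passing members with the smallest p were named. Receptors and ligands of named genes, their chromosomal neighbours and other list members were added with their values known. Alternatives were the methods' own test, array weights, an intensity trend, other scalings, a filter on dim genes, other probe set rules, the replicate number as a block and leaving out tumours. Promoters and gene order came from RefSeq tables (GRCm38.p6), and plots were made in Python 3.11.15 (matplotlib 3.10.9).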

Additional observations from a re-analysis of the deposited data

Results flagged for a closer look

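In 7 of 110 groups of 5 tumours, 1 tumour stood far from the other 4, by a gap that chance gives in about 1 of 20 groups. Ackr3 was 6.37 in Ezh2+/+ tumour 1, with the nearest tumour at 5.88. Ccl12 was 2.84 in Ezh2+/+ tumour 3, far below the nearest at 4.50. Ccl22 was 5.97 in Ezh2-/- tumour 5, above 4.95. Cxcl1 was 6.02 in Ezh2+/+ tumour 4, above 5.39, and Cxcr5 was 5.21 in the same tumour, above 4.95. Cxcl3 was 2.95 in Ezh2-/- tumour 2, above 2.23. Cxcr6, a receptor of resident T cells, was 4.52 in Ezh2+/+ tumour 5, above 3.90. None of these 7 genes passed the comparison of genotypes.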

How the results depend on the processing

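Counts of ligands are given as higher and lower, then of receptors. The equal-variance test of the methods with adjustment gave 0 and 2, then 0 and 2, with 862 of all genes higher and 1153 lower. The methods' unadjusted thresholds gave 3 (Cxcl13, Cxcl12 and Cx3cl1) and 5, then 0 and 1 (1063 of all genes higher, 950 lower). Array weights gave 1 ligand higher and 2434 of all genes higher. Quantile normalization gave 1 ligand higher, 2 receptors higher and 0 lower (882 of all genes lower), and cyclic loess left 1 receptor lower (764 of all genes higher, 1065 lower). Without the dimmest 40%, 0 receptors were higher and 1 lower (535 of all genes lower), and fewer genes were tested. Centring on all probe sets, chosen after seeing the data, gave 5 ligands higher, 4 receptors higher and 1 lower (5219 of all genes higher, 927 lower). Without Ezh2-/- tumours 1 and 5, also chosen after seeing the data, 1 ligand was higher and 0 receptors were higher and 5 lower.

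Leaving out 1 tumour at a time gave 0 to 3 ligands higher, 3 to 6 lower, 0 to 1 receptors higher and 2 to 3 lower, and 748 to 2519 of all genes higher and 983 to 1920 lower. Fewest ligands, 3, were lower without Ezh2-/- tumour 4 or Ezh2+/+ tumour 5, and most, 3, were higher without Ezh2-/- tumour 3. Cx3cr1 ranged from -0.022 to 0.158 over these fits and Cxcr4 from -0.402 to 0.066. Signs turned for Ackr3 under cyclic loess (-0.113), for Cx3cr1 under quantile normalization (-0.053) and cyclic loess (-0.106), and for Ccl9 without Ezh2-/- tumours 1 and 5 (-0.146). The cause was not tested.

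The labels do not say that replicate numbers pair the tumours. Deviations of same-numbered tumours correlated at -0.0417 to 0.340, over 0.1 in 3 of 5 pairs, and 2 of 5 correlated best with their own number, so the numbers were not treated as pairs. With the replicate number as a block, 5 ligands were higher (Ccl12, Ccl6, Cxcl13, Cxcl12 and Cx3cl1) and 8 lower (the same 6 with Cxcl3 and Cxcl15), and 2552 of all genes were higher. The direction of the 10 members that passed was the same under each alternative.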
